A study of Mus musculus with 60 samples.

Results

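Unirradiated, vehicle-treated mice supplied the control blood of the study. They were 12 of its 60 mice, chosen by their labels as every unirradiated vehicle mouse, with 6 mice on Day 0 (animals 13 to 18) and 6 other mice on Day 1 (animals 25 to 30). All were male CD2F1 mice, 5 to 6 weeks old at purchase, with no transgene or deletion named in the labels or methods. All received the vehicle, water with methylcellulose and polyvinylpyrrolidone, by repeated oral gavage, and no BIO 300 (an oral powder of the isoflavone genistein) and no radiation. Whole blood was drawn under isoflurane from the inferior vena cava into PAXgene tubes, which preserve RNA, on the day after the last gavage (Day 0) or a day later (Day 1). Each mouse was bled once, so a difference between days is a difference between animals, and the day of sampling and the mice sampled on it cannot be told apart. For comparison, 36 other unirradiated male CD2F1 mice took BIO 300 by gavage at a low, medium or high dose and were bled in the same way, 6 per dose and day. The comparison asks how much whole-blood RNA moves between the baseline sample and the next day when no drug or radiation was given, and the 12 mice together give the baseline itself.

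Mouse whole blood is mostly red cells, and the youngest of these, the reticulocytes, have lost their nucleus but still hold messenger RNA for haemoglobin, haem synthesis and the membrane skeleton. Platelets also lack a nucleus and carry RNA from the megakaryocyte that shed them. White cells are few, and among them B cells, T cells, neutrophils and monocytes differ in marker genes.

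Libraries held 15099415 to 25211167 counted reads on Day 0 and 22605827 to 32949547 on Day 1, and 22511 to 25243 genes had at least 1 read per library. Levels are given in CPM, counts set to a common library size with TMM scaling of the 12 libraries, fold changes as log2 of Day 1 over Day 0, and the test is edgeR's quasi-likelihood test with Benjamini-Hochberg adjustment over 24375 genes. Libraries that stood apart were those of mice 17 (Day 0) and 29 (Day 1), which held liver transcripts, of mouse 16 (Day 0), which held skeletal muscle transcripts and the fewest reads, and of mouse 30 (Day 1), which held the most reads. The first principal component, 68.4% of the variance, set the libraries with liver transcripts apart, with scores of 79.9 for mouse 17, 38.9 for mouse 29 and -19.1 to -2.59 for the others. The second, 15.6%, ranged from -1.27 to 23.1 on Day 0 and from -19.9 to -8.25 in 5 Day 1 mice, and was 10.8 in mouse 30.

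A few genes held much of the RNA counted in the blood of the 12 mice. The 20 leading genes took 39.0% ± 2.7 of all counts (SD, n = 12), and 14 of them were among the 20 leading genes of every single mouse. Between 34 and 135 genes, with a median of 63, held 50% of the counts of a mouse. At the other end, 10322 of the genes tested averaged under 1 CPM, whereas 7395 averaged at least 10 CPM and 82 at least 1000 CPM. A read was found in every mouse for 18755 genes.

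Of the 20 leading genes, 6 belong to the globin, red cell or haem synthesis lists (Hbb-bs, Alas2, Slc25a37, Bnip3l, Fech and Bpgm) and 3 to the noncoding list (Gm26917, Gm42418 and Rn7sk). Hbb-bs, the main adult beta globin (chr7:103826534-103828096, minus strand, GRCm38), took 9.20% ± 1.53 of counts (SD, n = 12), although the methods describe removal of globin RNA during library preparation. Alas2, which makes the enzyme of the first step of haem synthesis in red cells (chrX:150547375-150570638, plus strand), took 4.01% ± 0.63, and Fech, which inserts the iron at the last step, 0.968% ± 0.221. Tent5c, a poly(A) polymerase, took 2.14% ± 0.69 and Ucp2, a mitochondrial carrier, 1.28% ± 0.22. Epb41, protein 4.1 of the membrane skeleton, took 1.25% ± 0.59, the widest relative spread among the 20 with a coefficient of variation of 47.3%. Slc25a37, the iron importer of mitochondria, took 1.10% ± 0.40 and Bnip3l, which clears mitochondria from the maturing reticulocyte, 1.02% ± 0.10. Bnip3l was the steadiest of the 20, with a coefficient of variation of 10.2%. These are shares of reads, which favour long transcripts.

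**Figure D1:**
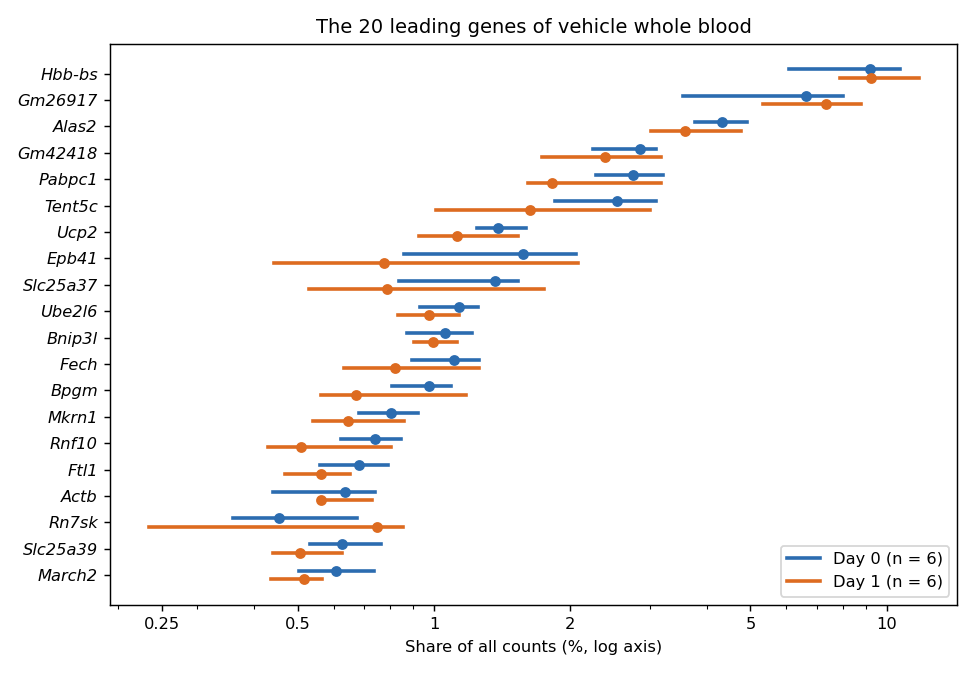
Share of all counts (percent, log axis) on each of the 20 leading genes of vehicle whole blood, with the median as a point and the lowest to highest of 6 mice as a line, for Day 0 in blue and Day 1 in orange. The 2 lines overlap for every gene shown, and the Day 1 median is the lower one for 17 of the 20 genes.

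Per kilobase of exon the order changed. Hbb-bs stayed first with a level of 121400 CPM per kilobase, ahead of Gm23935 (66330), Gm26917 (20210), Alas2 (17280), the small nuclear RNA Rn7sk (17180) and Gm42418 (14600). Gm23935 has only 57 bases of exon, and division by so short a length makes its value uncertain. The interferon-inducible conjugating enzyme Ube2l6 reached 5441 and the ferritin light chain gene Ftl1 4782 CPM per kilobase, both above Pabpc1 (3820) and Tent5c (3706), which lead them by share of reads. Gm26917 and Gm42418 lie side by side on chromosome 17 (chr17:39843013-39846341 and chr17:39846958-39848788) and are known to collect reads of ribosomal RNA. Together they took between 6.24% and 11.2% of a library's counts. Reads shared by near-identical copies, such as Hbb-bs with Hbb-bt, Hba-a1 with Hba-a2 or these ribosomal loci, are split or lost when only unique hits are counted, so the levels of such genes are uncertain.

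All 4 adult globin genes in the table were present, and together they took 9.73% ± 1.60 of counts, from 6.47% to 12.4% (n = 12). Hbb-bs ran from 61813 to 135630 CPM, Hbb-bt from 2513 to 5415, Hba-a1 from 910 to 2334 and Hba-a2 from 385 to 939 CPM over the 12 mice. Beta globin reads exceeded alpha globin reads in every mouse, by 37.0 to 57.6 times with a median of 46.3. The embryonic globin genes summed to 0.303 to 1.11 CPM.

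For the red cell and adult globin lists, the 250 bases before the start of each gene were read from RefSeq (GRCm38.p6) and searched on both strands for AGATAA, a core of the site bound by GATA1, and CCACACCC, a form of the CACCC box bound by KLF1, which do not overlap in letters. Of 21 listed genes 12 matched, with 13 promoters. AGATAA stood in 3 of these (23.1%) against 9.99% of all 32851 promoters of that length, and CCACACCC in 1 (7.69%) against 3.2%. The 3 promoters with a match are shown, 5′ to 3′ on the gene's strand with the matched letters in capitals, because their genes span the list from the highest level (Hbb-bs, Alas2) to a gene of the membrane skeleton (Epb42). They are the windows chrX:150547167-150547416 (plus strand) for Alas2, chr2:121036878-121037127 (minus strand) for Epb42 and chr7:103827929-103828178 (minus strand) for Hbb-bs.
Alas2: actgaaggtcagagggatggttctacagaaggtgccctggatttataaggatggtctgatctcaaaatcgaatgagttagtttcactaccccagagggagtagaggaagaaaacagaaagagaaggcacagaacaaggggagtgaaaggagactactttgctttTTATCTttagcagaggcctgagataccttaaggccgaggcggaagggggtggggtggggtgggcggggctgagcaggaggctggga
Epb42: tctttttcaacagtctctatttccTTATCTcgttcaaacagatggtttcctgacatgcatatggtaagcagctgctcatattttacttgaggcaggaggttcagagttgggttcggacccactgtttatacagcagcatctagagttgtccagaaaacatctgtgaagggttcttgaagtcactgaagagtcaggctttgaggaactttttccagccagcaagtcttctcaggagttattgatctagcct
Hbb-bs: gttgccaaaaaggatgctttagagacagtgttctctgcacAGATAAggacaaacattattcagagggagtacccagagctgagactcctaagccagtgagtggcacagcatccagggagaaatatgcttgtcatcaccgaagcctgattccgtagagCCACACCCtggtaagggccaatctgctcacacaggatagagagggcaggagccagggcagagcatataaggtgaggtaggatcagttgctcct
The match begins 86 bases before the start in Alas2 and 226 before it in Epb42, both on the reverse strand. In Hbb-bs, AGATAA begins 210 and CCACACCC 93 bases before the start. A match is a description of letters and was tested for nothing else. Starts are those of RefSeq and differ from the GENCODE gene bounds given above. For Hbb-bs and Alas2 they lie inside those bounds, so that part of each window, with the CCACACCC match of Hbb-bs, lies within the gene as printed.

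Levels of the cell classes of blood were summed over lists of marker genes, and for some classes few members carried the sum. Sums over lists of different genes are given for each list on its own, not as an order of the classes. The red cell list (14 genes measured, such as Alas2 and the anion exchanger Slc4a1) summed to 44395 to 123380 CPM over the 12 mice, and the platelet list (12 genes, such as Ppbp and Pf4) to 2822 to 7006 CPM. Sums of B cell genes lay between 1995 and 3404 CPM, of classical monocyte genes between 847 and 1970, of neutrophil genes between 555 and 1080 and of T cell genes between 338 and 860. Patrolling monocyte genes summed to 151 to 353 CPM, NK cell genes to 109 to 356, plasma cell genes to 85.6 to 141 and plasmacytoid dendritic cell genes to 77.9 to 114. Eosinophil genes summed to 47.0 to 115.5, basophil genes to 41.8 to 90.2 and dendritic cell genes to 29.5 to 51.3 CPM. In a given mouse, 2 to 3 of the 6 eosinophil, 1 to 2 of the 8 basophil and 0 to 1 of the 7 dendritic cell genes exceeded 10 CPM. Genes of immature granulocytes, which mark the bone marrow stage, summed to at most 1.28 CPM over the 3 of 5 that could be tested, Mpo, Prtn3 and Ctsg. In bulk blood a lower level can mean fewer cells of a type or less RNA per cell, and these cannot be told apart.

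Classes differed in how alike the mice were. The highest over the lowest mouse was 1.47-fold for plasmacytoid dendritic cell genes, 1.71-fold for B cell and 1.95-fold for neutrophil genes, against 2.78-fold for red cell, 2.48-fold for platelet and 3.28-fold for NK cell genes. T cell genes spread 2.54-fold, with the lowest value, 338 CPM, in mouse 17, the library with the most liver RNA, and 639.7 to 859.9 CPM in the other 11 mice. Among the single markers, the pan-T-cell gene Cd3e ranged from 54.9 to 143 CPM on Day 0 and from 117 to 141 CPM on Day 1. The immunoglobulin M gene Ighm ranged from 598 to 901 and from 546.5 to 972 CPM, with full overlap of the days.

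**Figure D2:**
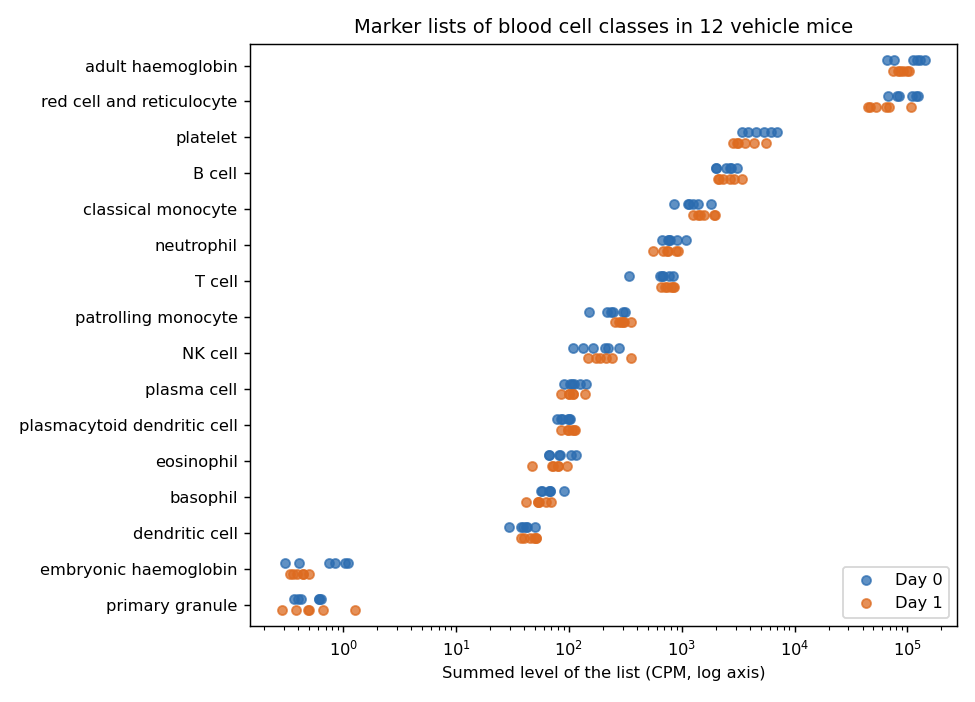
Summed level of each marker list (CPM, log axis), 1 point per mouse, with Day 0 in blue and Day 1 in orange. Lists hold different genes and transcript lengths, so rows are not compared with each other, and within every row the points of the 2 days overlap.

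Genes of solid tissues spread more widely. The highest over the lowest mouse was 32500-fold for hepatocyte, 324-fold for adipocyte, 127-fold for fibroblast, 28.8-fold for skeletal muscle and 14.4-fold for mesothelium genes. The 16 hepatocyte genes summed to 19506 CPM (1.51% of counts) in mouse 17, to 2729 CPM (0.300%) in mouse 29 and to 55.4 CPM in mouse 27, while the other 9 mice held 0.600 to 7.59 CPM. Alb, serum albumin, stood at 8140 CPM in mouse 17 and 1054 in mouse 29, at 18.1 in mouse 27 and at 0 to 1.57 CPM in the rest. For each of the 16 genes the level in mouse 17 was 4.41 to 12.0 times that in mouse 29, with a median of 6.93. Skeletal muscle genes summed to 140 CPM in mouse 16 and to 4.87 to 6.46 CPM in the other 11 mice, with the fast myosin gene Myh4 at 39.3 CPM in that mouse and at 0 to 0.11 elsewhere. The adipocyte sum ran from 2.36 to 763 CPM with a median of 69.0. Its largest member, the carbonic anhydrase Car3, made up 731 of the 763 CPM in mouse 17 and 182 of the 185 CPM in mouse 29, and was 108 CPM in mouse 16 and 67.7 in mouse 30 against 0.178 in mouse 18. Of the 8 genes of the list, 2 exceeded 10 CPM in mouse 17 and 1 in mouse 29, against 6 in mouse 16 and 3 in mouse 30. The source of these transcripts was not tested.

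**Figure D3:**
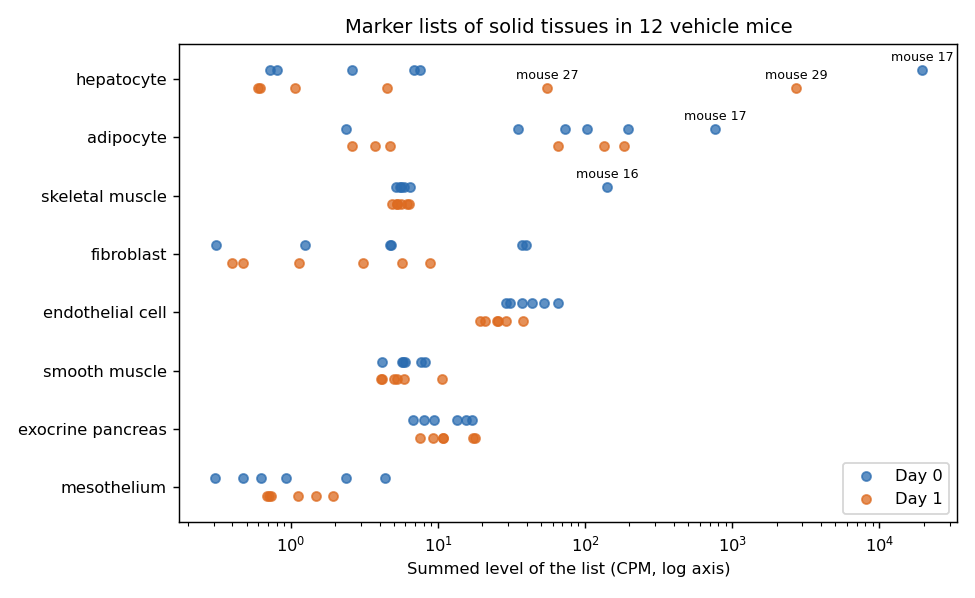
Summed level of marker genes of solid tissues (CPM, log axis), 1 point per mouse, with Day 0 in blue and Day 1 in orange and the mice that stand apart labelled. For hepatocyte genes mouse 17 reaches 19506 CPM and mouse 29 reaches 2729 CPM, and for skeletal muscle genes mouse 16 reaches 140 CPM.

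Liver transcripts led the list of most variable genes by SD. Over the 7395 genes with a mean of at least 10 CPM, the SD of log2(CPM + 1) between mice of a day had a median of 0.175, with 0.101 and 0.367 at the 10th and 90th percentiles. An SD over 1 was found for 149 genes, for 22 of 7335 without mouse 17 and for 10 of 7288 without mice 17 and 29. Of the 200 most variable genes by SD, 188 were highest in mouse 17, and in 171 of these mouse 29 came next. By the median absolute deviation, which a single mouse moves less, 90 of the 200 most variable were highest in mouse 17 and 50 in mouse 15. The leading ones by SD were products of hepatocytes, namely Alb (SD 4.63), the lipoprotein Apob (4.09), the cytochrome Cyp3a11 (3.92), the protease inhibitor Serpina3k (3.87) and the urinary protein Mup3 (3.82). Near-identical copies in the Serpina and Mup families make the last of these levels uncertain.

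With mice 17 and 29 left out, a choice made after seeing the data, the most variable genes included genes of fat, muscle and vessel wall. On the levels scaled over all 12 mice, 9 of 7232 genes had an SD over 1, namely Car3 (SD 2.66), Gpd1 (2.34), the brown fat gene Ucp1 (2.19), the sinusoidal endothelial receptor Stab2 (1.70), the fatty acid binding protein Fabp4 (1.59), the muscle gene Ttn (1.52), Sgip1 (1.33), the lipase Lpl (1.24) and Scfd2 (1.05). Stab2 ran from 1.80 to 65.4 CPM. Further down came Apol11b, with an SD of 0.904 and 192 to 1578 CPM, a gene that is neither in a fat nor in a muscle list here.

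The steadiest genes had moderate levels. The smallest SD was that of H13, a signal peptide peptidase (0.0448), at 52.7 to 59.0 CPM on Day 0 and 57.4 to 60.9 on Day 1. Stx5a, a Golgi syntaxin, had an SD of 0.0463 and levels of 28.1 to 31.7 CPM, and the RNA-destabilising Zfp36, an immediate early gene, had an SD of 0.054 and levels of 87.3 to 99.8 CPM over the 12 mice. Rab5b, of early endosomes, lay between 47.0 and 53.4 CPM and Irf3, a factor of antiviral responses, between 23.5 and 28.1 CPM. The 15 steadiest genes had SDs of 0.0448 to 0.0563, and the days overlapped in 14 of them, the exception being Colgalt1 (30.4 to 33.3 and 33.3 to 36.9 CPM). Counting error is part of such SDs, and its share was not tested.

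Between Day 0 and Day 1, no gene passed the thresholds for a DEG (adjusted p under 0.05 and absolute log2 fold change over 1). EdgeR called 0 of 24375 genes (0%) with either direction, the smallest adjusted p was 0.204, and 0 genes had an adjusted p under 0.05 whatever their fold. Without adjustment 3007 genes had p under 0.05, 1216 higher on Day 1 (4.99% of those tested) and 1791 lower (7.35%). No value overlapped between the 6 and 6 mice for 118 genes that were higher (0.484%) and 54 that were lower (0.222%). DESeq2's Wald test on the same counts called 37 DEGs (0.152% of the 24375 genes), 1 higher and 36 lower on Day 1. It had 777 genes at an adjusted p under 0.05 and 2939 at an unadjusted p under 0.05. DESeq2 gave no adjusted p for 12861 genes, so it adjusted over fewer genes than edgeR.

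The width of the intervals shows what these 12 mice could have shown. The 95% interval of the log2 fold change lay within -1 to 1 for 14568 genes (59.8%), and for 6812 of the 7395 genes with at least 10 CPM (92.1%), so for these a change by over 2-fold was outside the interval. For 583 genes of that level the interval reached beyond a 2-fold change. The biological coefficient of variation was 0.463 over the 12 mice, 0.559 among the Day 0 mice and 0.34 among the Day 1 mice.

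**Figure D4:**
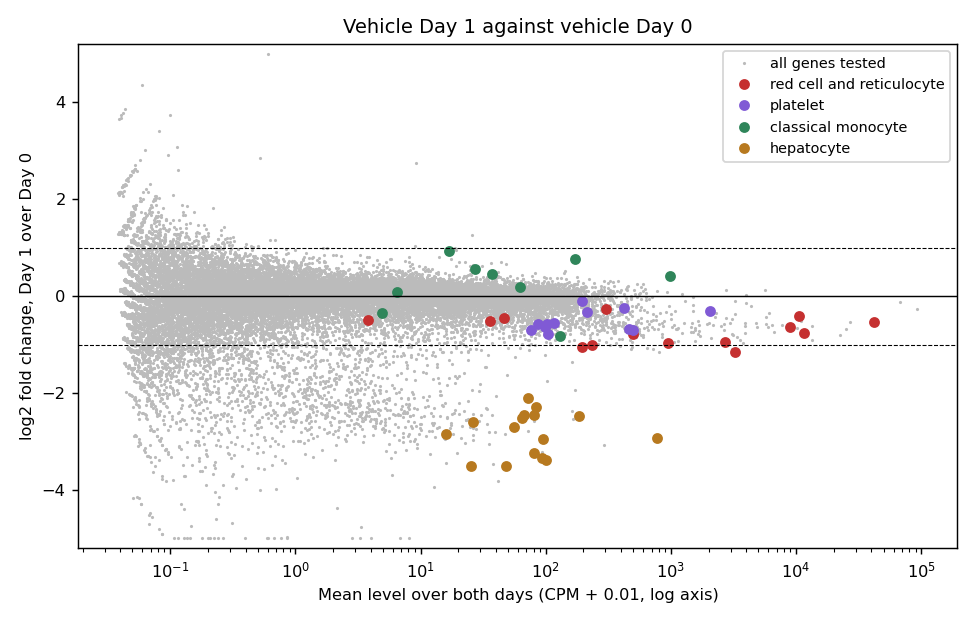
Log2 fold change of Day 1 over Day 0 for each of 24375 genes against the mean level (CPM + 0.01, log axis), with 4 marker lists in colour and dashed lines at -1 and 1. Values beyond 5 in size are drawn at the edge; red cell (14 of 14) and platelet genes (12 of 12) lie below 0, 7 of 9 classical monocyte genes above 0, and the hepatocyte genes far below 0 through mouse 17.

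Red cell genes had lower levels on Day 1 in most mice, without passing the adjusted test. All 14 measured genes of the list had a negative log2 fold change, with a median of -0.70 (all genes tested, -0.01), and 8 had an unadjusted p under 0.05 against 7.35% of all genes, but 0 were called by edgeR (3 by DESeq2) and in 0 of them did the days separate fully. Slc4a1, the anion exchanger of the red cell membrane, ran from 2782 through a median of 5151 to 5943 CPM on Day 0 and from 1133 through 1490 to 4188 CPM on Day 1. Its highest Day 1 value was that of mouse 30, and the other 5 Day 1 mice lay at 1133 to 2517 CPM, under every Day 0 mouse. On the log2 scale Day 1 differed by -1.16 ± 0.35 (± is the standard error of the fold change, edgeR adjusted p = 0.240).

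Parts of the membrane skeleton had like values. Epb42, protein 4.2, had a log2 fold change of -1.06 ± 0.28 and ankyrin, Ank1, one of -1.01 ± 0.31 (edgeR adjusted p 0.208 and 0.244), and DESeq2 called both along with Slc4a1. The spectrin gene Sptb (-0.97 ± 0.39) and protein 4.1, Epb41 (-0.91 ± 0.50), had wider errors. Epb41 ran from 9210 to 24524 CPM on Day 0 and, without mouse 30 at 22663 CPM, from 3660 to 10996 CPM on Day 1.

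Regulators of red cell development had smaller values. Gata1, the factor of red cell and megakaryocyte development, had 30.7 to 59.6 CPM on Day 0 and 22.8 to 42.5 on Day 1 (-0.51 ± 0.17), and Klf1, the globin gene activator, 2.84 to 6.36 and 2.09 to 4.26 CPM (-0.50 ± 0.21). The transferrin receptor Tfrc, which imports iron, overlapped widely at 225 to 446 and 211 to 341 CPM (-0.27 ± 0.18).

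The red cell sum of mouse 30, 107920 CPM, lay within the Day 0 range of 67527 to 123380 CPM, as did that of mouse 29 at 68362 CPM. Mouse 30 was the highest Day 1 mouse in 10 of the 14 genes and lay above the Day 0 median in 6. Over all genes of at least 10 CPM, 329 were lower in the 5 other Day 1 mice than in every Day 0 mouse, and mouse 30 reached the Day 0 range in 306 of them. Of 125 genes higher in those 5 mice, it reached that range in 72. Mouse 30 was singled out after seeing the data, and both sets of genes were picked by leaving it out. Its overlap with Day 0 in them is thus partly set by that choice, and no other mouse was left out in the same way. With all 6 Day 1 mice, 23 genes of that level separated lower and 53 higher. Without mouse 30, 11 of the 14 red cell genes had an unadjusted p under 0.05, the list's median was -0.89, and still 0 genes were called over the whole table, with a smallest adjusted p of 0.0597. It was also the deepest library, and whether depth has a part in this was not tested.

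**Figure D5:**
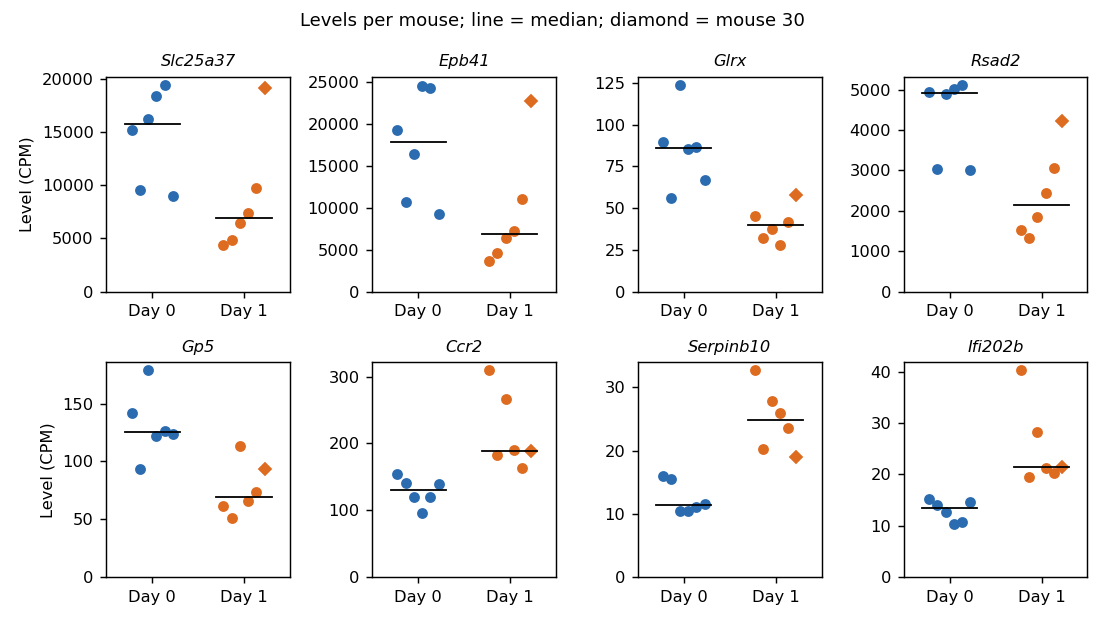
Level per mouse (CPM) of 8 genes on Day 0 (blue) and Day 1 (orange), each axis from 0, with the median as a line and mouse 30 as a diamond. For Slc25a37, Epb41, Glrx, Rsad2 and Gp5 the Day 1 median is lower and mouse 30 lies within the Day 0 range, while for Ccr2, Serpinb10 and Ifi202b all Day 1 mice lie above all Day 0 mice.

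Haem synthesis followed the red cell list, with which it shares Alas2. Of its 8 genes, 7 had negative log2 fold changes, and the median was -0.57. On the lower side 5 had an unadjusted p under 0.05, against 7.35% of all genes. Alas2 itself had 35401 to 63220 CPM on Day 0 and 24851 to 52129 on Day 1, overlapping in most mice (-0.53 ± 0.53, edgeR adjusted p = 0.696). Urod, of the fifth step, had a smaller error, with 154 to 313 and 105 to 194 CPM (-0.64 ± 0.17, edgeR adjusted p = 0.208). Uros, of the fourth, was the one member in which the days did not overlap, at 8.86 to 13.3 against 6.98 to 8.68 CPM (-0.32 ± 0.11). Over all genes 0.222% were lower on Day 1 without overlap. The 4 adult globin genes had a median of -0.34 and 0 with an unadjusted p under 0.05. Hbb-bs overlapped widely, at 61813 to 135630 and 70775 to 97590 CPM, and its interval of -1.95 to 1.41 was among the wide ones.

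As shares of counts, which do not depend on the TMM scaling, 17 of the 20 leading genes had the lower median on Day 1; Hbb-bs, Gm26917 and Rn7sk had the higher one. Each of the 20 leading shares, the total count and the number of genes detected were compared by a 2-sided exact permutation test of the 924 splits of 6 and 6 mice, where the smallest possible p is 0.00216. Of these 22 tests 6 had a raw p under 0.05 and 0 after Benjamini-Hochberg adjustment, with a smallest adjusted p of 0.159. The smallest raw p was that of Rnf10, a ubiquitin ligase, at 0.624% to 0.846% with a median of 0.740% on Day 0 and 0.431% to 0.802% with a median of 0.509% on Day 1 (exact permutation p = 0.026, adjusted 0.159). The share on Alas2 was 3.77% to 4.91% and 3.02% to 4.78% (exact permutation p = 0.121, adjusted 0.178).

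Platelet genes also had lower medians on Day 1. All 12 had negative log2 fold changes with a median of -0.57. Of these, 8 had an unadjusted p under 0.05, against 7.35% of all genes on the lower side. EdgeR and DESeq2 called 0, and in 0 did the days separate. Gp5, of the von Willebrand factor receptor, had 93.2 to 179 CPM with a median of 125 on Day 0 and 51.2 to 113 with a median of 69.6 on Day 1 (-0.78 ± 0.20, edgeR adjusted p = 0.204). Mice 27 (113 CPM) and 30 (93.9 CPM) of Day 1 lay within the Day 0 range. Itga2b, the fibrinogen receptor subunit, had 464 to 851 and 241 to 578 CPM (-0.71 ± 0.21), and the platelet tubulin Tubb1 -0.69 ± 0.19. The granule chemokines were nearer to 0, with -0.30 ± 0.25 for Ppbp and -0.24 ± 0.23 for Pf4, and Clec1b had -0.09 ± 0.24.

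Classical monocyte genes lay on the other side. Of 9 genes, 5 had an unadjusted p under 0.05 and higher medians on Day 1 (4.99% of all genes did), the list's median was 0.41, and 0 were called by edgeR or DESeq2. Ccr2, the receptor that brings monocytes out of the marrow (chr9:124101950-124113557, plus strand), had 96.5 to 154 CPM with a median of 130 on Day 0 and 164 to 311 with a median of 189 on Day 1. Every Day 1 mouse lay above every Day 0 mouse, and the log2 fold change was 0.76 ± 0.17 (edgeR adjusted p = 0.204). Chil3, a chitinase-like secreted protein, also separated, at 4.90 to 18.4 with a median of 11.7 against 18.4 to 31.6 CPM with a median of 20.7 (0.92 ± 0.25, edgeR adjusted p = 0.210). Ly6c2, the surface marker of the class, had 11.4 to 29.8 and 28.5 to 46.3 CPM (0.55 ± 0.21) and lysozyme, Lyz2, 573 to 949 and 899 to 1414 CPM (0.41 ± 0.16). Fn1 (-0.83 ± 0.75), fibronectin, had the opposite sign and was highest in mouse 17, at 656 CPM.

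Of the 6 patrolling monocyte genes all had positive values with a median of 0.29, and 2 had an unadjusted p under 0.05, Treml4 (9.33 to 16.2 and 13.8 to 22.0 CPM, 0.48 ± 0.14) and Nr4a1 (0.34 ± 0.14). Dendritic cell genes had a median of 0.20 with 1 such gene, the lectin Cd209a (0.42 ± 0.12), and plasmacytoid dendritic cell genes one of 0.25 with 2, Siglech (0.81 ± 0.30) and Ccr9 (0.38 ± 0.17). Over all genes 4.99% had such a p on the higher side.

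Median log2 fold changes of lymphocyte genes were 0.06 for the 12 B cell, 0.21 for the 12 T cell and 0.19 for the 12 NK cell genes, and in these lists only Cd3g, of the T cell receptor complex, had an unadjusted p under 0.05 (19.0 to 42.6 and 39.3 to 54.4 CPM, 0.46 ± 0.16, edgeR adjusted p = 0.273). Without a single mouse, the T cell median ran from 0.09 (without mouse 17) to 0.29, the NK cell median from 0.01 (without mouse 25) to 0.38 (without mouse 13) and the B cell median from -0.04 (without mouse 26) to 0.13 (without mouse 16). The 12 neutrophil genes had a median of -0.05 (-0.15 without mouse 27, 0.02 without mouse 15), with the gelatinase Mmp9 at 55.8 to 78.4 and 35.9 to 67.3 CPM (-0.49 ± 0.15) as the one with an unadjusted p under 0.05. The alarmins S100a8 (-0.33 ± 0.18) and S100a9 (-0.05 ± 0.20) overlapped fully. The basophil list had a median of -0.01 (-0.20 without mouse 29, 0.12 without mouse 30) and 1 such gene, the factor Gata2, at 23.3 to 44.6 and 18.0 to 28.4 CPM (-0.59 ± 0.15). Over all genes 4.99% had such a p on the higher and 7.35% on the lower side.

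These medians move with the scaling of the libraries. Scaling by total counts in place of TMM shifted the median log2 fold change of all genes by 0.32, to 0.31. Red cell (-0.39), platelet (-0.23) and haem synthesis (-0.23) medians stayed negative and the classical monocyte median (0.75) positive, while adult globin (0.03), neutrophil (0.31), basophil (0.36) and interferon (0.12) medians turned positive. With total counts 5 red cell, 2 platelet and 2 haem synthesis genes had an unadjusted p under 0.05 on the lower side. With TMM these were 8, 8 and 5. Classical monocyte genes on the higher side numbered 6 against 5 with TMM, and interferon genes 2 lower and 3 higher against 5 and 2. Over all genes 6930 had such a p with total counts, 6500 of them higher on Day 1. Relative to all genes, the red cell, platelet and haem synthesis lists lay lower and the monocyte list higher with both scalings. A change of scaling moves all genes by nearly the same amount, so this likeness was set in advance and is no check.

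Interferon-responsive genes had values of both signs. Of 15 genes, 5 had an unadjusted p under 0.05 and lower medians on Day 1, against 7.35% of all genes. Another 2 had such a p and higher medians, against 4.99%. The median of the list was -0.15, and 0 were called by edgeR or DESeq2. Rsad2, viperin, an antiviral enzyme, held most of the list's reads, with 3009 to 5116 CPM and a median of 4920 on Day 0 against 1322 to 4216 and a median of 2140 on Day 1. Mice 29 (3059 CPM) and 30 (4216 CPM) of Day 1 lay within the Day 0 range and the other 4 under it (-0.85 ± 0.30, edgeR adjusted p = 0.283). Isg15, the ubiquitin-like modifier (chr4:156199424-156200818, minus strand), separated the days, with 56.5 to 98.2 CPM and a median of 64.7 against 26.9 to 52.9 and a median of 43.0 (-0.81 ± 0.19, edgeR adjusted p = 0.204). Mx1, an antiviral GTPase, had 2.13 to 4.89 and 3.70 to 9.52 CPM (0.75 ± 0.26) and Ifi44 2.85 to 4.81 and 3.85 to 8.52 CPM (0.67 ± 0.21), while Ifit2 (0.01 ± 0.15) and Oasl2 (-0.01 ± 0.19) were near 0.

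The smallest p-values over all genes came from genes of modest level. Arhgap28, a GTPase-activating protein (chr17:67842713-68004120, minus strand), had 7.12 to 10.9 CPM with a median of 9.24 on Day 0 and 4.51 to 6.27 with a median of 5.17 on Day 1, with no overlap (-0.80 ± 0.12, unadjusted p = 1.9e-05, edgeR adjusted p = 0.204). Serpinb10, a serine protease inhibitor (chr1:107529003-107549271, plus strand), overlaps Serpinb2 on the same strand and had 10.4 to 16.0 CPM with a median of 11.3 on Day 0. On Day 1 it had 19.0 to 32.8 CPM with a median of 24.8, all above Day 0 (0.99 ± 0.16, unadjusted p = 2.9e-05, edgeR adjusted p = 0.204). Others without overlap and with higher Day 1 values were the lysosomal protease Ctss (101 to 136 and 142 to 177 CPM, 0.48 ± 0.09), the urokinase receptor Plaur (0.46 ± 0.09), the interferon-inducible Ifi202b (10.4 to 15.2 and 19.5 to 40.4 CPM, 0.96 ± 0.18) and S100a4 (0.81 ± 0.17). On the lower side, the stress adaptor Sqstm1 (-0.69 ± 0.13) and the lamin Lmna (-0.86 ± 0.16) had 1 Day 1 mouse each within the Day 0 range, and the RNA-binding Rbm38 (-0.54 ± 0.12) and Slc22a23 (-0.82 ± 0.19) did not.

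The genes that DESeq2 called, and edgeR did not, included genes of red cells, the noncoding list, muscle (Neb) and vessel wall (Kdr). The first by p was Glrx, glutaredoxin, a thiol reductase, with 56.2 to 124 CPM and a median of 86.0 on Day 0 and 28.0 to 57.6 with a median of 39.8 on Day 1. Mouse 30, at 57.6 CPM, alone reached the Day 0 range (DESeq2 log2 fold change -1.09 ± 0.21, adjusted p = 0.00047). Car2, the carbonic anhydrase of red cells, had 578 to 1325 and 279 to 756 CPM (DESeq2 -1.11 ± 0.25, adjusted p = 0.00305). Mir6236 (-1.17 ± 0.24), Gm15564 (-1.23 ± 0.25), Gm25732 (-1.09 ± 0.25) and the protein-coding Lars2 (-1.10 ± 0.22), which were grouped in the noncoding list, had DESeq2 adjusted p of 0.000684 to 0.00305, and edgeR gave each of them 0.204. Snord17, a small nucleolar RNA inside Snx5, was the one called higher, at 7.92 to 21.5 and 14.0 to 49.2 CPM (DESeq2 1.25 ± 0.28, adjusted p = 0.00299), and mouse 30 had the 14.0 CPM.

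Tissue genes showed how 1 library can set a group difference. All 16 hepatocyte genes had negative log2 fold changes with a median of -2.77 and standard errors of 2.13 to 2.88, and 0 had an unadjusted p under 0.05. The median was 8.09 without mouse 17, -8.02 without mouse 29 and 2.75 without both. For skeletal muscle it was -3.97, with 6 of 9 genes at an unadjusted p under 0.05, and -0.20 without mouse 16. Endothelial (-1.15, and -0.22 without mouse 17), fibroblast (-2.21, and -1.36 without mouse 17) and adipocyte genes (-1.41, from -2.39 without mouse 30 to -0.84 without mouse 16) were also lower in median on Day 1, with 2, 2 and 1 genes at an unadjusted p under 0.05. Over all genes 7.35% had such a p on the lower side. Of the 20 genes of interest to the study, a list the study chose on these samples, 2 had such a p. They were on the higher side, where 4.99% of all genes had such a p. EdgeR and DESeq2 called 0 genes of this list. Its median of -0.35 became 0.35 without mouse 17, whose C3 level of 1459 CPM compares with 20.8 to 158 in the other mice.

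The same interval was also looked at in BIO 300-treated mice. Day 1 was compared with Day 0 in 12 mice at each dose, and edgeR called 1484 DEGs at the low dose (6.14%), 10065 at the medium dose (43.6%) and 8357 at the high dose (37%), of which 1331, 3571 and 2885 were higher on Day 1. The test of whether a dose differed from vehicle in its day effect called 2025 genes at the low (7.69%), 10889 at the medium (42%) and 9437 at the high dose (36.7%). These 3 tests share the 12 vehicle mice. Biological coefficients of variation on Day 0 and Day 1 were 0.262 and 0.195 at the low dose, beside 0.559 and 0.34 with vehicle. They were 0.418 and 0.514 at the medium and 0.374 and 0.459 at the high dose. Genes detected per library on Day 1 were 18337 to 20941 at the medium and 17162 to 19361 at the high dose. On Day 0 they were 22143 to 26134 and 22548 to 24135. The part of either in the counts of DEGs was not tested. In the red cell list 14, 5 and 3 of 14 genes were called higher on Day 1 at the low, medium and high dose, with medians of 1.49, 0.92 and 0.51 beside -0.70 with vehicle, and the difference from vehicle was called for 14, 8 and 9 genes. All 12 platelet genes were called higher at each dose, with medians of 1.27, 2.5 and 2.26 beside -0.57 with vehicle, and all 12 differed from vehicle at each dose. In the classical monocyte list 0, 6 and 4 of 9 genes were called lower, with medians of -0.01, -1.21 and -0.61 beside 0.41. 

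The directions at the doses were checked with another scaling, and some turned. When libraries were scaled by their totals, the median of all genes was -0.74, -1.48 and -1.25 at the 3 doses, against 0.31 with vehicle. DEGs numbered 4116 of 24169, 13849 of 23097 and 12026 of 22573 genes tested. Of these, 153, 955 and 625 were higher on Day 1 and the rest lower. The interaction then called 10577 of 26323, 15517 of 25908 and 14107 of 25702 genes, with 395, 911 and 616 of those called higher. In the red cell list the medians became 0.73, -0.06 and -0.42, with 0, 1 and 0 genes called higher and 0, 2 and 1 called lower. The difference from vehicle was called for 10, 1 and 1 of its 14 genes, at the medium and high dose a smaller share than over all genes. Platelet medians were 0.59, 1.53 and 1.34, with 0, 12 and 12 genes called higher and 1, 12 and 12 that differed from vehicle. Classical monocyte medians were -0.70, -2.38 and -1.52, with 3, 7 and 7 genes called lower. Relative to all genes, the red cell and platelet lists lay higher on Day 1 at every dose with both scalings. The monocyte list lay lower at the medium and high dose with both scalings, and at the low dose it lay slightly above all genes. Position relative to all genes hardly depends on the scaling, so the likeness of the 2 scalings was set in advance.

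For Gp5, as a single gene, the log2 fold change was -0.78 with vehicle and 1.26, 2.48 and 2.41 at the low, medium and high dose, and the differences from vehicle had edgeR adjusted p of 0.000298, 1.33e-06 and 1.54e-07. For Ccr2 it was 0.76 with vehicle and -0.01, -1.22 and -0.61 at the 3 doses, and the differences had edgeR adjusted p of 0.0252, 7.58e-06 and 0.00906. With total counts these differences kept their sign, and the largest adjusted p was 0.00186, for Gp5 at the low dose. For Isg15 it was -0.81 with vehicle and 1.64, 1.03 and 0.81 with BIO 300, and for Rsad2 -0.85 and 1.66, 0.73 and 0.90. Each of these differences from vehicle had an edgeR adjusted p under 0.05, the largest being 0.00842 for Rsad2 at the medium dose. With total counts both genes differed from vehicle at the low dose alone (edgeR adjusted p of 0.00034 and 0.00102), and the adjusted p at the other doses ran from 0.0716 to 0.331. The log2 fold changes then were 0.93, 0.06 and -0.14 for Isg15 and 0.92, -0.23 and -0.03 for Rsad2.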

How the data were processed

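Whole-blood RNA of 60 mice was sequenced on an Illumina NextSeq instrument, of which the 12 unirradiated vehicle mice are described and 36 unirradiated BIO 300-treated mice compared. The methods name a stranded total RNA kit that removes globin and ribosomal RNA, but poly(A) selection is named in the labels, and which was used cannot be told apart here. The authors' deposited tables hold raw counts per gene for 49315 Ensembl genes. The submitters' processing notes name Trimmomatic 0.36, STAR 2.5.2b, Subread 1.5.2, DESeq2 and the GRCm38 build. Symbols were found for 48970 genes and positions for 49056 (GENCODE M21). Tables of fold changes, p-values and normalized values by the authors were not used. Mice repeated across tables had equal counts in all 36 repeated columns.

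Groups followed the labels. Counts were fitted with edgeR 4.0.16 (R 4.3.3) by the quasi-likelihood test after TMM scaling, for genes with at least 10 counts over the 12 mice. Genes were called DEGs when p, adjusted by Benjamini-Hochberg, was under 0.05 and the log2 fold change was over 1 in size. DESeq2 1.42.0 and limma 3.58.1 served as alternatives. The same fits were made at each dose, with an interaction of dose and day. Variation between mice is the SD of log2(CPM + 1) within days, over genes with a mean of at least 10 CPM. Exact permutation tests used scipy 1.17.1. The scripts were tested on simulated data. Libraries held 15099415 to 32949547 reads.

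The members and gene lists were chosen with earlier results of these data known. The list of genes of interest to the study was taken from the study. Genes named were, per list, the 3 of highest level and the 1 of smallest p, the 20 leading genes, the 15 most variable by SD and by MAD and the 15 least variable, the 10 of smallest p in each direction, up to 10 called by DESeq2, and the 5 of largest fold without overlap in each direction. Other list members named were chosen after their values were seen. Of the 217 genes, 69 overlap another gene and 32 one on the same strand, and counts of these are uncertain. A few members of the lists are counted in them but not reported here by name.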

Additional observations from a re-analysis of the deposited data

Results flagged for a closer look

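In 96 groups of 6 mice, 1 mouse was looked for whose gap to its nearest neighbour took an unusually large part of the group's range (Dixon's test, 95% level), and 11 were found, where chance flags about 1 in 20 groups. Mouse 16 had the fewest reads of Day 0 (15099415) and the highest summed level of skeletal muscle genes (140 CPM). Mouse 30 had the most reads of Day 1 (32949547), the lowest share of counts on Rn7sk (0.234%) and the highest level of smooth muscle genes (10.6 CPM). Mouse 17 stood apart on Day 0 for hepatocyte genes (19506 CPM), adipocyte genes (763 CPM, of which 731 from Car3) and, on the low side, T cell subset genes (157 CPM). Mouse 29 stood apart on Day 1 for hepatocyte genes (2729 CPM). The share of counts on Actb was highest in mouse 27 on Day 1 (0.731%), and basophil genes were highest in mouse 15 on Day 0 (90.2 CPM).

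The day effect differed between vehicle and BIO 300 by the interaction test of edgeR for 2025 genes at the low dose, 10889 at the medium dose and 9437 at the high dose.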

How the results depend on the processing

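No paired analysis was possible because the groups compared share no replicate numbers, as each mouse was bled once. The count of 0 DEGs between days became 37 with DESeq2 and 1 with the dispersion taken from all 48 unirradiated mice, and was 0 without any single mouse. The count of genes with an unadjusted p under 0.05 was 6930 with total counts in place of TMM, 6500 of them higher on Day 1, and 2162 to 3632 without a single mouse. Intervals within -1 to 1 numbered 13841 to 14822 without a single mouse. With total counts the low dose had 4116 DEGs between days and 10577 in the interaction. Leaving out a vehicle mouse gave interactions of 1795 to 2268 genes at the low, 10401 to 11376 at the medium and 9101 to 9668 at the high dose. Without mice 17 and 29, an alternative chosen after seeing the data, there were 0 DEGs, 2680 genes with an unadjusted p under 0.05 and 14685 intervals within -1 to 1. The cause of these shifts was not tested. Over 35 of the 217 named genes, 760 fold changes under alternatives kept direction and side of the threshold, 10 passed it with DESeq2 alone, and 0 reversed. The 35 include genes named for their small p or DESeq2 call on these same data, such as Serpinb10 and Gm15564. These counts are thus partly set by that choice, and they do not cover every named gene. Medians of some lists changed sign without mouse 17, as for hepatocyte genes (-2.77 to 8.09) and genes of interest to the study (-0.35 to 0.35). The median SD between mice of 0.175 was 0.25 with total counts and 0.146 to 0.181 without a single mouse, and the share of the 20 leading genes 38.6% to 39.3%. Genes under 1 CPM, 10322 of those tested, carry little information at this depth.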

Other observations

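Genes outside the blood cell classes gave further values of the vehicle mice. Of 75 cytosolic ribosomal protein genes, 65 had positive log2 fold changes from Day 0 to Day 1 with a median of 0.17, 17 had an unadjusted p under 0.05 on the higher and 2 on the lower side, and 0 were called by edgeR or DESeq2. Over all genes 4.99% had such a p on the higher and 7.35% on the lower side. The number of these ribosomal protein genes on the higher side was 9 without mouse 17, 13 without mice 17 and 29, 29 without mouse 30 and 63 with total counts. Rpl21, of the large subunit, had 81.4 to 106 CPM on Day 0 and 104 to 142 CPM on Day 1 (0.37 ± 0.08). The 28 mitochondrially encoded genes tested had a median of -0.38, which was -0.05 without mouse 17, and 0 had an unadjusted p under 0.05. The noncoding list, which also holds the protein-coding Lars2, had a median of -0.20 (-0.09 without mouse 30) with 4 such genes on the lower side.

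The 18 clock genes had a median of -0.23, which was 0.08 without mouse 17, and 0 with an unadjusted p under 0.05. Nr1d1, a repressor of the clock, ran from 1.91 to 26.6 CPM on Day 0 and from 1.60 to 8.32 on Day 1. Glucocorticoid-responsive (median 0.01) and immediate early genes (0.02) also had 0 such genes. Of 18 cell cycle genes, Mki67 (-0.52 ± 0.24) and Ccna2 (-0.54 ± 0.23) had one, of 12 p53 targets Bbc3 (-0.30 ± 0.13), and of 10 heat shock genes Hsp90aa1 (-0.32 ± 0.14). On the lower side 7.35% of all genes had such a p. Without mouse 17 the cell cycle list had 0 such genes. With total counts it had 4 on the higher and 0 on the lower side, and its median went from -0.10 to 0.21. In the eosinophil list (median -0.15) the gene with such a p was Prg2, at no more than 0.533 CPM. The plasma cell (-0.07, and -0.23 without mouse 26), T cell subset (0.16, and 0.01 without mouse 17), mesothelium (-0.38, and 1.11 without mouse 17), smooth muscle (0.34, and -0.43 without mouse 30) and exocrine pancreas lists (-0.34 over the 3 genes tested) had 0 such genes. In the kidney list 1 of 5 genes could be tested, and Umod and Kap were at 0 counts in all 12 mice. Of the 5 immature granulocyte genes 3 could be tested, with a median of -0.14 (0.31 without mouse 13).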
